A study of Homo sapiens with 14 samples.

Results

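The proteasome genes described here are the human protein-coding genes of GENCODE 44 whose symbol starts with PSMA, PSMB, PSMC, PSMD, PSME, PSMF or PSMG. There are 50 of them among 20033 protein-coding genes, and 48 remain when PSMC3IP and PSME3IP1, interacting proteins that only share the symbol stem, are set aside. They were examined in KLF4 ChIP-seq of BEAS-2B, an established human bronchial epithelial cell line. Chromatin bound by KLF4, a zinc finger transcription factor, was immunoprecipitated and sequenced in 4 libraries, 1 per condition. These were untreated WT cells (WT control), WT cells given 1 µM As3+ (arsenite) for 6 h (WT As3+), untreated cells without Nrf2 (Nrf2 KO control), and Nrf2 KO cells given the same As3+ exposure (Nrf2 KO As3+). The knockout was made by CRISPR-Cas9 with guides against exon 2 of the Nrf2 gene and drug selection. Colonies without detectable Nrf2 protein were taken as KO and those that kept it as WT, so colony and genotype cannot be told apart here, and with 1 library per condition differences between conditions are described without replicates or p-values.

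The proteasome degrades proteins tagged with ubiquitin. Its 20S core is a barrel of alpha and beta rings with the proteolytic sites on beta subunits, and the 19S regulatory particle at its ends recognises, deubiquitinates, unfolds and threads the substrate. Dedicated chaperones assemble both parts, and other activators and an inhibitor can bind the core. Proteasome genes are known to be induced together through antioxidant response elements (ARE) by the CNC factors NFE2L1 and, in part, Nrf2, and interferon exchanges catalytic subunits for the immunoproteasome forms. KLF4 binds CACCC and GC-rich elements, which are common in promoters.

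Data for each library were a list of peaks, with 751 peaks in WT control, 29870 in WT As3+, 76545 in Nrf2 KO control and 130 in Nrf2 KO As3+. Each peak has a summit and a fold enrichment, which is the fragments at the summit plus 1, divided by the local background plus 1. At the median summit 25, 10, 7 and 19 fragments were stacked in that order, as recovered from the fold and its p, and the weakest listed peaks had 10, 5, 4 and 10. The lowest local background was 1.90, 0.757, 0.491 and 1.64 fragments. The lists thus start at different depths, and a promoter without a listed peak may still hold one too weak to be called. Whether depth or list length contributes to the differences between libraries was not tested beyond the shortened lists given below.

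A gene was counted when at least 1 summit lay within 2 kb of the transcription start site (TSS) of its canonical transcript. In WT control, 1 of 50 proteasome genes had such a summit, against 0.794% of all protein-coding genes. In WT As3+, 29 had one, which is 58% (exact 95% interval 43.2 to 71.8), against 52.5% of all protein-coding genes. In Nrf2 KO control, 38 had one, which is 76% (61.8 to 86.9), against 67.5%. In Nrf2 KO As3+, 0 of 50 had one, which allows a share of up to 6% by a limit of 3 counts (exact upper bound 7.11%), against 0.195% of all genes. Both larger shares were above the level of all genes, and the level of all genes lay inside both intervals. These intervals cover counting error only.

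**Figure D1:**
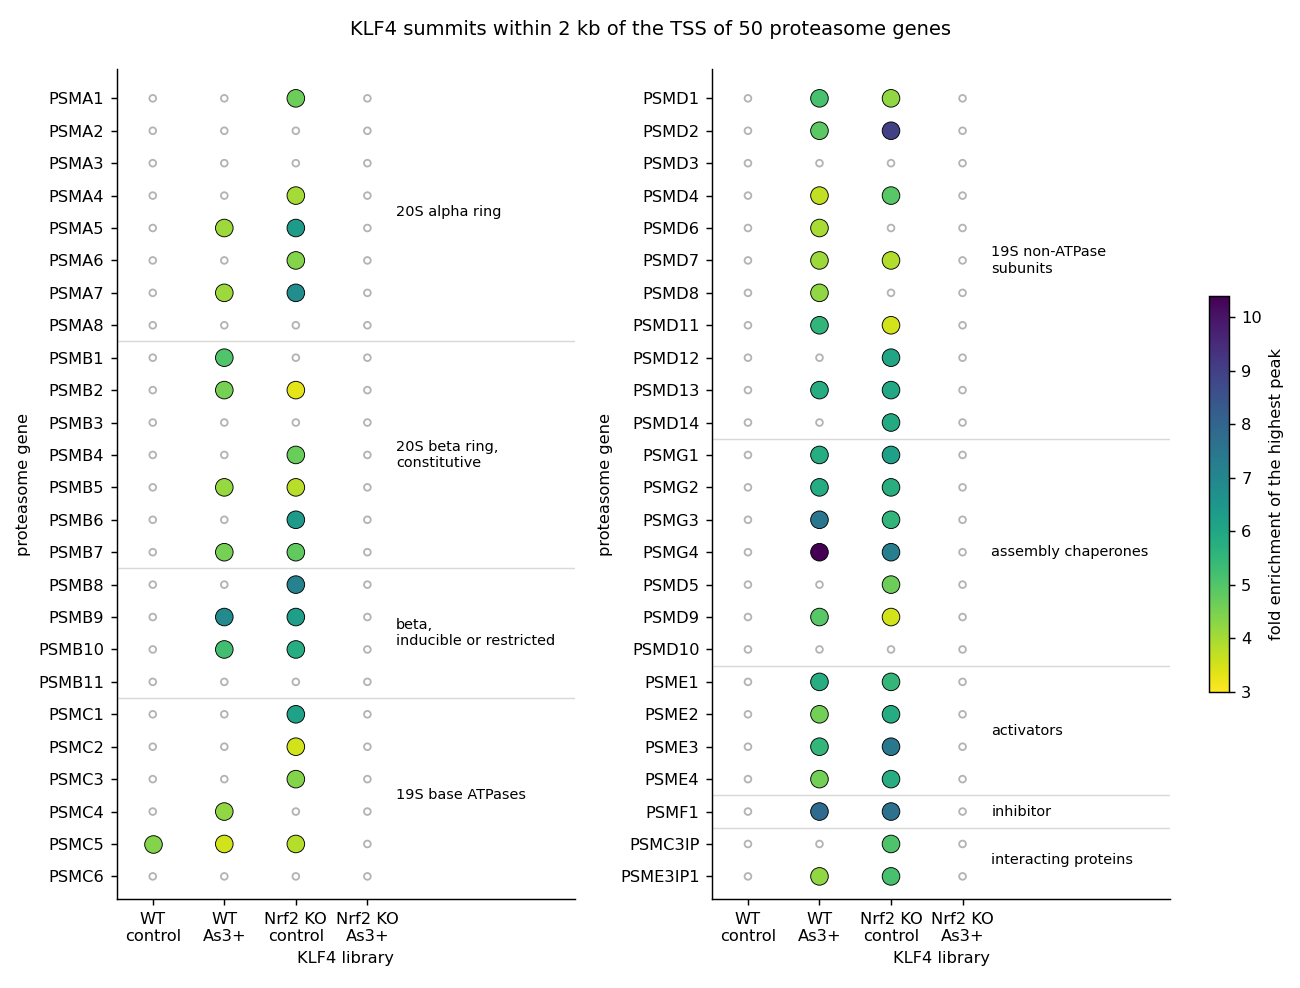
Each row is 1 of the 50 proteasome genes, grouped by role, and each column 1 KLF4 library. Filled circles mark genes with a summit within 2 kb of the TSS, coloured by the fold enrichment of their highest peak, and small open circles mark genes without one. The column of Nrf2 KO As3+ is empty, that of WT control holds PSMC5, and the darkest circle is PSMG4 in WT As3+ at 10.4.

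The order of WT As3+ and Nrf2 KO control depended on the length of their lists. When the Nrf2 KO control list was shortened to its 29870 strongest peaks by −log10 p, the length of the WT As3+ list, 23 proteasome genes (46%) kept a summit against 50.8% of all protein-coding genes. The WT As3+ count of 29 was then the larger. When both were cut to 751 peaks, 2 proteasome genes were left in WT As3+, PSMG4 and PSMF1, and 0 in Nrf2 KO control, against 1.89% and 2.82% of all genes. When only peaks with a −log10 q of 5 or more were kept, the counts were 15 (30%, against 28.6% of all genes) in WT As3+ and 18 (36%, against 38.5%) in Nrf2 KO control.

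Across libraries, 25 genes (50%) had a summit in both WT As3+ and Nrf2 KO control, against 48.9% of all protein-coding genes. Another 4 genes (8%) had one in WT As3+ and none in Nrf2 KO control, namely PSMB1, PSMC4, PSMD6 and PSMD8, against 3.62% of all genes. A further 13 genes (26%) had one in Nrf2 KO control and none in WT As3+, against 18.6%. These were PSMA1, PSMA4, PSMA6, PSMB4, PSMB6, PSMB8, PSMC1, PSMC2, PSMC3, PSMC3IP, PSMD5, PSMD12 and PSMD14. The remaining 8 (16%) had no promoter summit in any library, against 28.8% of all genes. They were PSMA2, PSMA3, PSMA8, PSMB3, PSMB11, PSMC6, PSMD3 and PSMD10. PSMA8 belongs to the testis and PSMB11 to the thymus, while the other six encode subunits or, for PSMD10, a chaperone used broadly. With the Nrf2 KO control list shortened to 29870 peaks, the 4 classes held 16, 13, 7 and 14 genes. These were 32%, 26%, 14% and 28%, against 40.25%, 12.29%, 10.58% and 36.86% of all protein-coding genes.

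The chaperones of 20S assembly carried the highest peak of the family. PSMG1 and PSMG2 form the PAC1-PAC2 dimer and PSMG3 and PSMG4 the PAC3-PAC4 dimer, which guide the building of the alpha ring. PSMG4 had a fold of 10.4 in WT As3+, from 27 fragments over a background of 1.69. Its summit lay in coding exon 1, 215 bp downstream of the TSS. This fold stood at percentile 98 among the 10526 genes with a promoter summit in that library. In Nrf2 KO control the PSMG4 fold was 7.24, with 18 fragments, and its summit was 45 bp upstream of the TSS. Both intervals overlapped, and neither WT control nor Nrf2 KO As3+ listed a PSMG4 promoter peak.

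The other 3 of this set also had a summit in both libraries, as did 48.9% of all protein-coding genes. PSMG3 had a fold of 7.49 in WT As3+ and 5.56 in Nrf2 KO control, with its highest summits 167 and 175 bp upstream of the TSS. PSMG2 had 5.85 and 5.72, at 1152 and 1068 bp upstream, where the summits were 833 and 749 bp from the TSS of CEP76 and thus closer to that gene. A second PSMG2 summit had a fold of 5.14 in WT As3+, 206 bp upstream and also closer to CEP76. In Nrf2 KO control the second had 5.45, 57 bp downstream and closer to the PSMG2 TSS. PSMG1 had 5.82 and 6.23, at 98 and 88 bp upstream. All 4 had a −log10 q above 5 in WT As3+, against 28.6% of all protein-coding genes, and all but PSMG3, at 4.72, in Nrf2 KO control, against 38.5%.

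The letters under these peaks are shown for the family's highest peak, PSMG4, and for PSMG1, whose 200-base window around the WT As3+ summit held several KLF words. The words, searched on both strands, were a KLF word (CCACACCC or CCACGCCC), a GC box (CCCCGCCCC), an ARE core (TGACNNNGC), an AP-1 word (TGACTCA or TGAGTCA) and an ETS word (CCGGAAG). AP-1 and ARE words overlap where the letters coincide. All sequences are given 5′ to 3′ on the strand of the gene in GRCh38, in lower case with matches to these words in capitals. PSMG4 is at chr6:3259062-3259261, plus strand, and its capitals are a GC box read on the opposite strand. PSMG1 is at chr21:39183449-39183648, minus strand, and its capitals are an ARE core followed by 3 KLF words read on the opposite strand.
PSMG4: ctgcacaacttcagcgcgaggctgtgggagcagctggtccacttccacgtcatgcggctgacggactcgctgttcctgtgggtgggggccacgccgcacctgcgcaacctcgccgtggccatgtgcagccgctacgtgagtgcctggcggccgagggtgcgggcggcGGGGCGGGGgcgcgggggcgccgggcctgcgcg
PSMG1: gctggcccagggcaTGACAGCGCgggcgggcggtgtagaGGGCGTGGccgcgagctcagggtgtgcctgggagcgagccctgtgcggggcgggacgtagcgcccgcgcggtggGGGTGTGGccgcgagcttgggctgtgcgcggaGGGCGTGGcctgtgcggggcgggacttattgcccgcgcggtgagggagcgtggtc

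The chaperones of the 19S base, PSMD5, PSMD9 and PSMD10, hold ATPase pairs before they join the base. PSMD9 had a fold of 4.91 in WT As3+, 83 bp upstream, and 3.50 in Nrf2 KO control, 72 bp downstream. PSMD5 was listed in Nrf2 KO control alone, at a fold of 4.66 with 11 fragments, and PSMD10 in no library. Over all 7 assembly chaperones, 5 had a summit in WT As3+ (71.4%) and 6 in Nrf2 KO control (85.7%), against 52.5% and 67.5% of all protein-coding genes. In Nrf2 KO control 5 remained when its list was shortened to 29870 peaks, against 50.8% of all genes. The PSMD9 window, at chr12:121888607-121888806 on the plus strand, is shown because it held 2 ARE cores. They are in capitals with an ETS word that directly precedes one of them and a GC box.
PSMD9: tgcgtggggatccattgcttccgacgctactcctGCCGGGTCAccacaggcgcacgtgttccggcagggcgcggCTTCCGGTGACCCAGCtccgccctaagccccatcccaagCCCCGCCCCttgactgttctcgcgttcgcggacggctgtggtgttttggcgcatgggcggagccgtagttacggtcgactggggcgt

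Regulators of the core followed, with the single inhibitor gene and all 4 activator genes listed in both libraries. Of all protein-coding genes, 48.9% were listed in both. PSMF1, the inhibitor PI31, had a fold of 7.84 in WT As3+ from 31 fragments, the most of any proteasome gene there, and 7.66 in Nrf2 KO control from 21 fragments. Its summits were 20 and 27 bp downstream of the TSS, in the untranslated part of exon 1. PSMF1 stood at percentile 90.5 and 85.9 among the genes with a summit, high in both lists. The RefSeq promoter of PSMF1 (chr20:1118352-1118651, plus strand, 250 bases before to 50 after the start) is shown because the summits lay within it. Its capitals are an ETS word and a KLF word upstream, then an ETS word at the start and 2 overlapping GC boxes after it.
PSMF1: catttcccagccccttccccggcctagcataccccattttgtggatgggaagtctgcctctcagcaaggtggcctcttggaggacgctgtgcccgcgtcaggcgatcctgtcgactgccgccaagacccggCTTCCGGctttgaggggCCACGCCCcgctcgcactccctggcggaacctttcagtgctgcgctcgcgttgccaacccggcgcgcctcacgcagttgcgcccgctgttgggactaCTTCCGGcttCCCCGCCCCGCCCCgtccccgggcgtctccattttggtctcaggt

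PSME1 and PSME2, which form the interferon-inducible 11S cap PA28, had folds of 5.77 and 4.56 in WT As3+ and 5.50 and 5.85 in Nrf2 KO control. PSME3, the nuclear PA28 gamma, had 5.54 and 7.43. PSME4, the PA200 cap, had 4.56 and 5.78. All 4 kept a summit in Nrf2 KO control when that list was shortened to 29870 peaks, against 50.8% of all protein-coding genes. Both PSME2 summits in WT As3+, 566 and 870 bp upstream, were closer to the TSS of RNF31, at 322 and 18 bp. The highest PSME4 summit was in intron 1, 547 bp downstream, in WT As3+ and 230 bp upstream in Nrf2 KO control. There it lay beyond the TSS of ACYP2, 110 bp from it. The PSME4 window in WT As3+, at chr2:53970346-53970545 on the minus strand, is shown for its ARE core.
PSME4: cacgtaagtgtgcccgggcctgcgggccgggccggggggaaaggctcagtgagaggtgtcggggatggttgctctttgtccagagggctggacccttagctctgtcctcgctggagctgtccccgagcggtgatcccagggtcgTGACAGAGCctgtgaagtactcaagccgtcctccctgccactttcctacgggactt

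In the 20S core the alpha ring, which gates the entry of substrates, was the role with the lowest share in WT As3+. Of its 8 genes, 2 had a summit in WT As3+ (25%, 3.18 to 65.1), against 52.5% of all protein-coding genes. They were PSMA5 at a fold of 4.07 and PSMA7 at 4.08. The Nrf2 KO control list had 5 (62.5%, 24.5 to 91.5), against 67.5%, and both intervals covered the share of all genes. PSMA7 had 6.81 there, PSMA5 6.32, PSMA1 4.65, PSMA6 4.37 and PSMA4 4.00. With the Nrf2 KO control list shortened to 29870 peaks, 2 of 8 were left, as many as in WT As3+, against 50.8% of all protein-coding genes. The PSMA7 summit in WT As3+ lay 1251 bp upstream and 876 bp from the TSS of SS18L1. Of the 3 PSMA7 summits in Nrf2 KO control, the highest was in exon 1, 88 bp downstream. Another lay 945 bp upstream at a fold of 4.73, and its interval overlapped that of WT As3+.

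The constitutive beta subunits include the 3 that carry proteolytic sites, PSMB5 (chymotrypsin-like), PSMB6 (caspase-like) and PSMB7 (trypsin-like). PSMB5 had a fold of 4.17 in WT As3+ with 12 fragments, and 3.79 in Nrf2 KO control with 6. PSMB7 had 4.54 with 10 fragments and 4.80 with 8. PSMB6 was listed in Nrf2 KO control alone, at 6.39 with 14 fragments, 365 bp upstream. PSMB5 and PSMB7 thus had low peaks, at percentile 15.9 and 4.60 and at 26.4 and 24.0 of the genes with a summit. PSMB6 stood higher, at 64.0 in Nrf2 KO control. The RefSeq promoter of PSMB5 (chr14:23034851-23035150, minus strand), shown as the promoter of a catalytic subunit, held none of the 5 words and so has no capitals.
PSMB5: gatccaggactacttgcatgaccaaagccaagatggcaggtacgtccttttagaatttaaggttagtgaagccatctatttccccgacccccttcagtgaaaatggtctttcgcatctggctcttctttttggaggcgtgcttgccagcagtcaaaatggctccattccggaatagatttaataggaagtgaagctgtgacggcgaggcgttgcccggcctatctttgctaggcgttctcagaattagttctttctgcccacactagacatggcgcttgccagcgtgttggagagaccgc

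Among the noncatalytic beta subunits, PSMB2 had a fold of 4.53 in WT As3+ and 3.30 in Nrf2 KO control. PSMB1 was listed in WT As3+ alone, at 5.03 and 1161 bp upstream, where the summit was 99 bp from the TSS of TBP. PSMB4 was listed in Nrf2 KO control alone at 4.68, and PSMB3 in neither. The constitutive beta ring had 4 of 7 genes in WT As3+ (57.1%) and 5 of 7 in Nrf2 KO control (71.4%), against 52.5% and 67.5% of all protein-coding genes. In the shortened Nrf2 KO control list it had 1 of 7, against 50.8% of all genes.

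The immunoproteasome subunits replace the constitutive catalytic ones after interferon. PSMB9, in the class II region of the major histocompatibility complex beside TAP1, had a fold of 6.89 in WT As3+ from 25 fragments and 6.27 in Nrf2 KO control from 17. Its highest summits were 120 bp downstream and 161 bp upstream, 608 and 327 bp from the TSS of TAP1, the gene of the peptide transporter. A lower PSMB9 summit lay 1047 bp upstream in WT As3+ and 671 bp upstream in Nrf2 KO control, closer to TAP1. PSMB8 was listed in Nrf2 KO control alone, at 7.12 with 15 fragments in intron 1. PSMB10 had 5.25 and 5.77, with the WT As3+ summit in coding exon 4 and 755 bp downstream of the TSS. The folds of PSMB8 and PSMB9 in Nrf2 KO control were above that of PSMB5, and that of PSMB10 above that of PSMB7, but PSMB6 at 6.39 was above PSMB9 and PSMB10.

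The 19S base ATPases, a ring that unfolds substrates and opens the gate, had 2 of 6 genes in WT As3+ and 4 of 6 in Nrf2 KO control. This was 33.3% and 66.7%, against 52.5% and 67.5% of all protein-coding genes. PSMC5 was the only proteasome gene with a promoter summit in WT control, at a fold of 4.37 from 33 fragments over a background of 6.78, with a −log10 q of 8.07 and 248 bp upstream of the TSS. In WT As3+ it had 3.51 from 14 fragments, 257 bp downstream in intron 1 and 25 bp from the TSS of FTSJ3. In Nrf2 KO control it had 3.83 from 10 fragments, 127 bp upstream. Among genes with a summit, the folds of the 3 libraries stood at percentile 58.5, 3.19 and 5.07. PSMC4 was listed in WT As3+ alone at 4.23. PSMC1, PSMC3 and PSMC2 were listed in Nrf2 KO control alone at 6.12, 4.37 and 3.50. PSMC6 had no promoter summit, although summits lay elsewhere between 2 kb before and 2 kb after the gene in the 3 libraries other than Nrf2 KO As3+.

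The PSMC5 window in WT As3+ (chr17:63827588-63827787, plus strand) is shown because it held both an ARE core, read on the opposite strand, and an AP-1 word.
PSMC5: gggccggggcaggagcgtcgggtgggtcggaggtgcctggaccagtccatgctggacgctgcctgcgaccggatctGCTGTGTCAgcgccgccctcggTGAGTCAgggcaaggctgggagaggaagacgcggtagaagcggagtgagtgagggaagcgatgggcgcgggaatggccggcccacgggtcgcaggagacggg

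The 19S subunits without ATPase activity form the lid and the ubiquitin-binding part of the base, and 8 of 11 had a summit in WT As3+ and 8 of 11 in Nrf2 KO control. This was 72.7% in both, against 52.5% and 67.5% of all protein-coding genes. PSMD2, the base scaffold RPN1, had the highest fold of the family in Nrf2 KO control, 8.95 from 18 fragments in intron 1, 346 bp downstream. In WT As3+ it had 4.87, 120 bp upstream. Its percentile was 94.8 in the former and 37.3 in the latter. PSMD1, PSMD4, PSMD7, PSMD11 and PSMD13 were listed in both, with folds from 3.69 to 5.78 in WT As3+ and from 3.50 to 5.97 in Nrf2 KO control. The highest PSMD13 summits, 749 and 786 bp upstream, were 115 and 152 bp from the TSS of SIRT3. Each library also listed a lower PSMD13 summit in coding exon 1. It lay 153 bp downstream at a fold of 5.47 in WT As3+ and 150 bp downstream at 4.45 in Nrf2 KO control. PSMD11 was the only gene of the 25 listed in both whose intervals did not overlap.

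Within the lid, PSMD6 and PSMD8 had a promoter summit in WT As3+ alone, at 3.95 and 4.23 with 13 fragments each. For PSMD8, Nrf2 KO control listed a summit elsewhere between 2 kb before and 2 kb after the gene. PSMD12 and PSMD14, the latter the deubiquitinase RPN11, were listed in Nrf2 KO control alone at 6.01 and 5.899. PSMD3 had no promoter summit. The PSMD8 window (chr19:38374824-38375023, plus strand) is shown as the other WT As3+ window with a KLF word, here read on the opposite strand.
PSMD8: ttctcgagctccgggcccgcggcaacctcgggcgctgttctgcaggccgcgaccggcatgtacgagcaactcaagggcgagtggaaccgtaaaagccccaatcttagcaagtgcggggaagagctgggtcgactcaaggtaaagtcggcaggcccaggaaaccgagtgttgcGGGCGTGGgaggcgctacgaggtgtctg

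Of the 2 interacting proteins, PSME3IP1 had a fold of 4.23 in WT As3+ and 5.15 in Nrf2 KO control, with the summits 272 and 13 bp from the TSS of RSPRY1. PSMC3IP, a recombination factor, was listed in Nrf2 KO control alone at 5.07. Set side by side, the alpha ring, the constitutive beta ring and the 19S subunits, with the testis gene PSMA8 among them, had a summit in 16 of 32 genes (50%, 31.9 to 68.1) in WT As3+ and 22 of 32 (68.8%, 49.99 to 83.9) in Nrf2 KO control. The activators, the inhibitor and the assembly chaperones had one in 10 of 12 (83.3%, 51.6 to 97.9) and 11 of 12 (91.7%, 61.5 to 99.8). Over all protein-coding genes the shares were 52.5% and 67.5%, inside each of these intervals, and over CpG-rich ones 75% and 89.2%. The intervals of the 2 role groups overlap in each library, and this split by role was made with results of these data known.

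**Figure D2:**
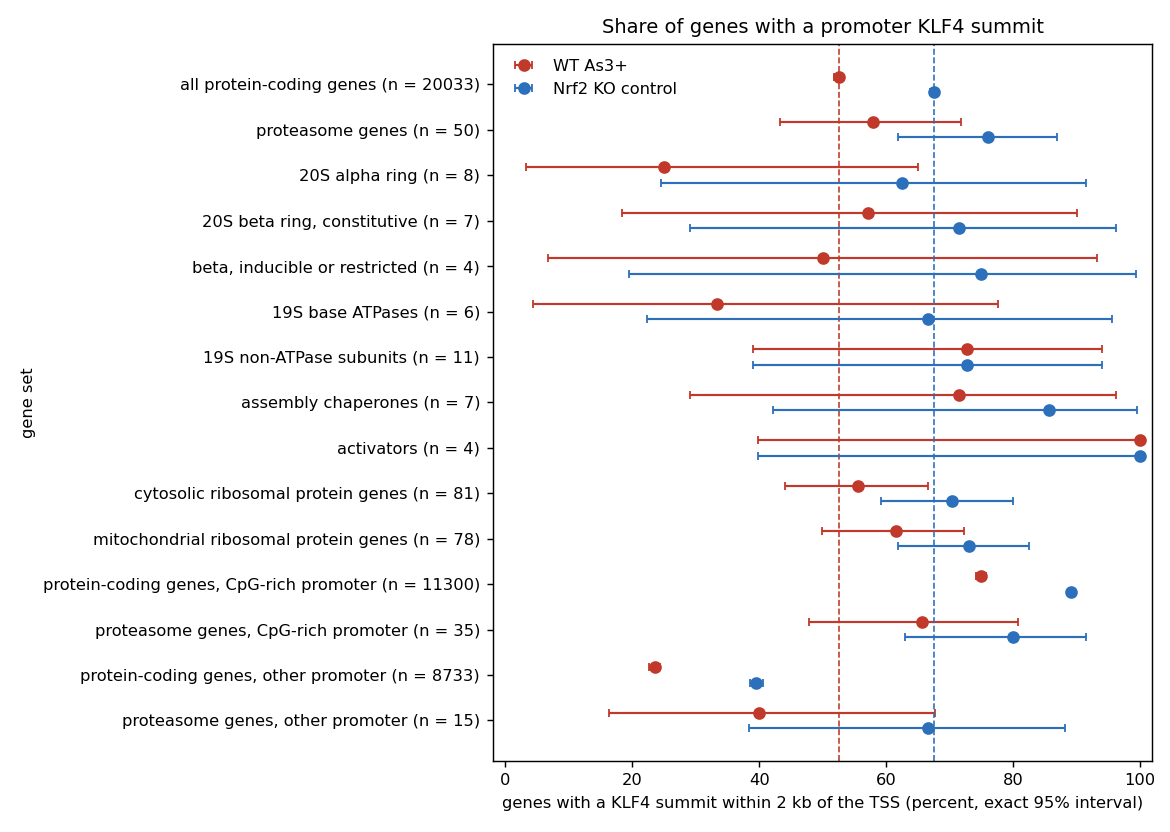
Points give the percent of genes with a KLF4 summit within 2 kb of the TSS in WT As3+ (red) and Nrf2 KO control (blue), for all protein-coding genes, the proteasome genes, their roles, the ribosomal protein genes and both promoter classes, with exact 95% intervals. Dashed lines mark all protein-coding genes, at 52.5% and 67.5%, which most of the wide role intervals cover.

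Other genes of the ubiquitin-proteasome pathway without a PSM symbol had a promoter summit in 18 of 24 in WT As3+ (75%, 53.3 to 90.2, against 52.5% of all protein-coding genes and 75% of CpG-rich ones) and 23 of 24 in Nrf2 KO control (95.8%, 78.9 to 99.9, against 67.5% and 89.2%), and in 0 of 24 in WT control and Nrf2 KO As3+. Accessory proteins such as the assembly factor POMP, the ubiquitin receptor ADRM1 and the deubiquitinases USP14 and UCHL5 had 8 of 11 and 11 of 11. Shuttle factors that carry ubiquitinated substrates, RAD23B, UBQLN1, UBQLN2, UBQLN4 and the protease DDI2, had 5 of 5 in both. The ubiquitin genes and the activating enzyme UBA1 had 2 of 5 and 4 of 5. The unfoldase VCP, the glycanase NGLY1 and NFE2L1, the factor that induces proteasome genes, had 3 of 3 in both.

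Other large housekeeping complexes gave similar shares. Cytosolic ribosomal protein genes had a summit in 45 of 81 (55.6%, 44.1 to 66.6) in WT As3+ and 57 of 81 (70.4%, 59.2 to 80.0) in Nrf2 KO control. Mitochondrial ribosomal protein genes had 48 of 78 (61.5%, 49.8 to 72.3) and 57 of 78 (73.1%, 61.8 to 82.5). The proteasome shares of 58% and 76% lay inside all 4 intervals, and no difference between the families was tested.

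Promoter composition gave a different background. A promoter was called CpG-rich when the 1 kb around the TSS had at least 55% GC and an observed over expected CpG ratio of at least 0.65. This held for 35 of 50 proteasome genes (70%) and 56.4% of all protein-coding genes. Of the 35, 23 (65.7%, 47.8 to 80.9) had a summit in WT As3+, against 75% of all CpG-rich genes, and 28 (80%, 63.1 to 91.6) in Nrf2 KO control, against 89.2%. Of the other 15, 6 (40%, 16.3 to 67.7) and 10 (66.7%, 38.4 to 88.2) had one, against 23.5% and 39.5% of genes with such promoters. CpG-rich proteasome genes were thus below their class and the remaining ones above it, with the class value inside the interval in all 4 cases. The median GC content was 61.2% for the proteasome genes with a WT As3+ summit and 56.9% for those without, and 65.5% and 54.8% for all protein-coding genes.

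**Figure D3:**
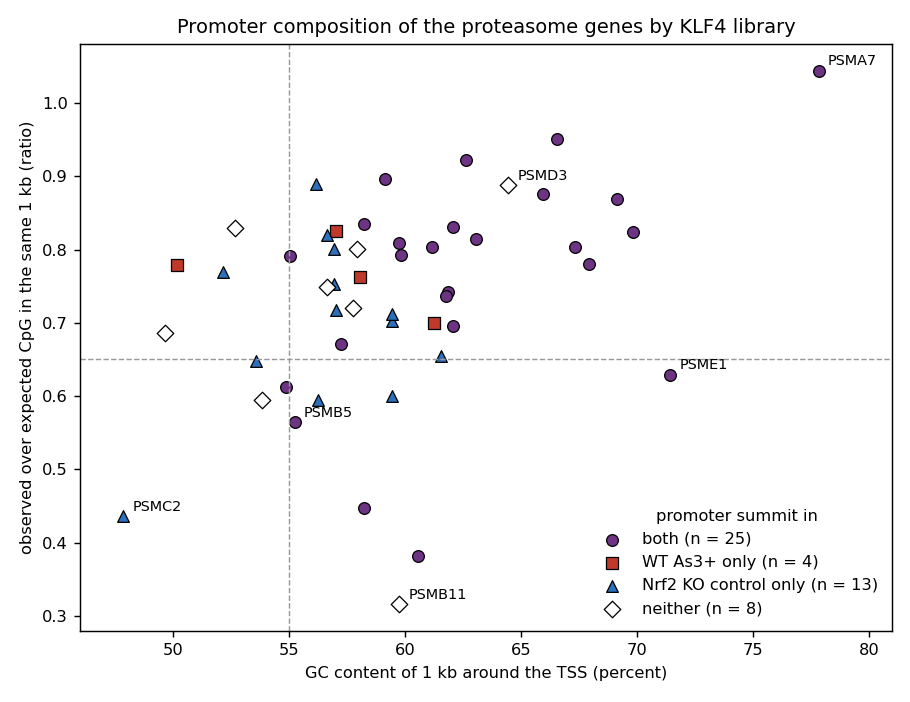
Each symbol is 1 proteasome gene, placed by the GC content (percent) and the observed over expected CpG ratio of the 1 kb around its TSS, and shaped by the library with a promoter summit. Dashed lines mark 55% GC and a ratio of 0.65. PSMA7, at 77.8% GC, is at the upper right among the genes with a summit in both libraries, while PSMD3, at 64.4%, has a summit in neither.

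Where summits were found, they were near the TSS and of ordinary strength. The distance from the TSS had a median of 215 bp in WT As3+ and 179 bp in Nrf2 KO control, against 271 and 314 bp over all genes with a summit. In Nrf2 KO control 32 of 38 (84.2%) lay within 500 bp, against 66.5% of all genes, and in WT As3+ 20 of 29 (69.0%), against 71.5%. The highest peak lay downstream of the TSS in 48.3% and 50% of the proteasome genes and in 57.6% and 59.5% of all genes. The median width was 364 and 352 bp, against 406 and 444 bp.

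**Figure D4:**
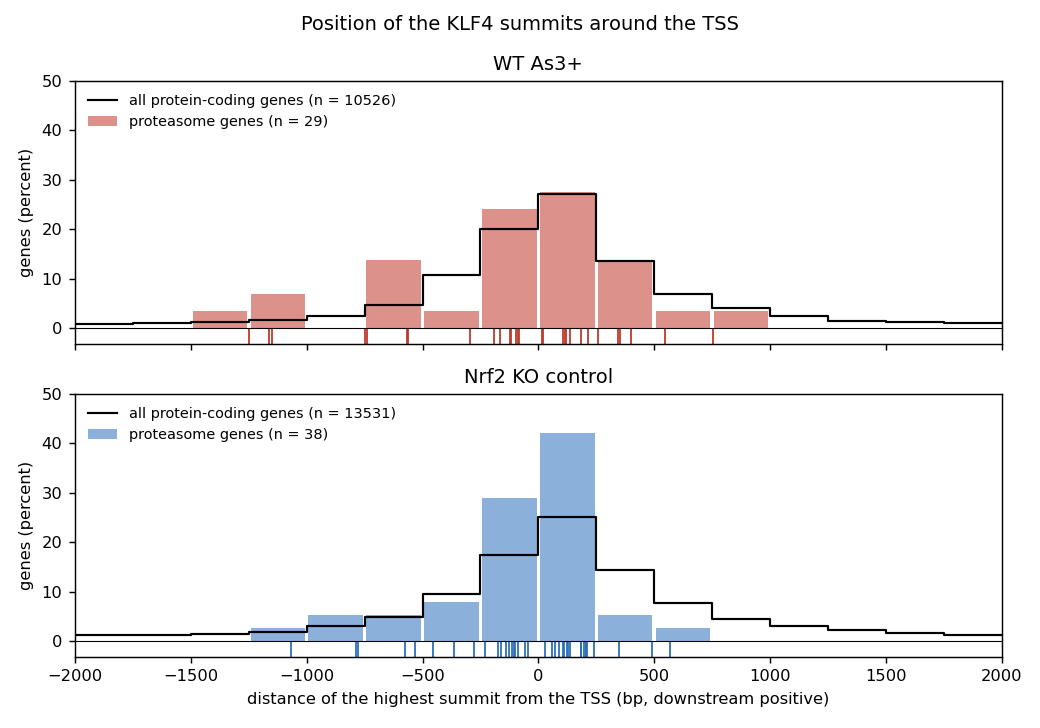
Bars show the percent of proteasome genes, and black steps that of all protein-coding genes with a summit, whose highest summit falls in each 250 bp bin around the TSS (distance in bp, downstream positive), with a tick per proteasome gene. In Nrf2 KO control 42.1% of proteasome genes fall in the bin from 0 to 250 bp downstream, against 25.1% of all genes, and in WT As3+ 27.6% against 27.2%.

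The median fold of the proteasome genes was 4.87 in WT As3+, against 5.33 over all genes with a summit, and 5.53 in Nrf2 KO control, against 5.81. The median fragments were 13, against 13, and 11.5, against 11. The median percentile of fold among the genes with a summit was 37.3 and 43.2, below the middle of both lists. A fold depends on the local background of its library, so folds were ranked within a library. PSMF1 and PSMG4 stood above percentile 79 in both, while PSMC5, PSMB5 and PSMD7 stood under percentile 16 in both. PSMA7 and PSMD11 differed in percentile, at 13.97 and 57.2 in WT As3+ and 72.9 and 2.08 in Nrf2 KO control, but their highest summits lay at different sites in the libraries, and the lists differ in length.

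**Figure D5:**
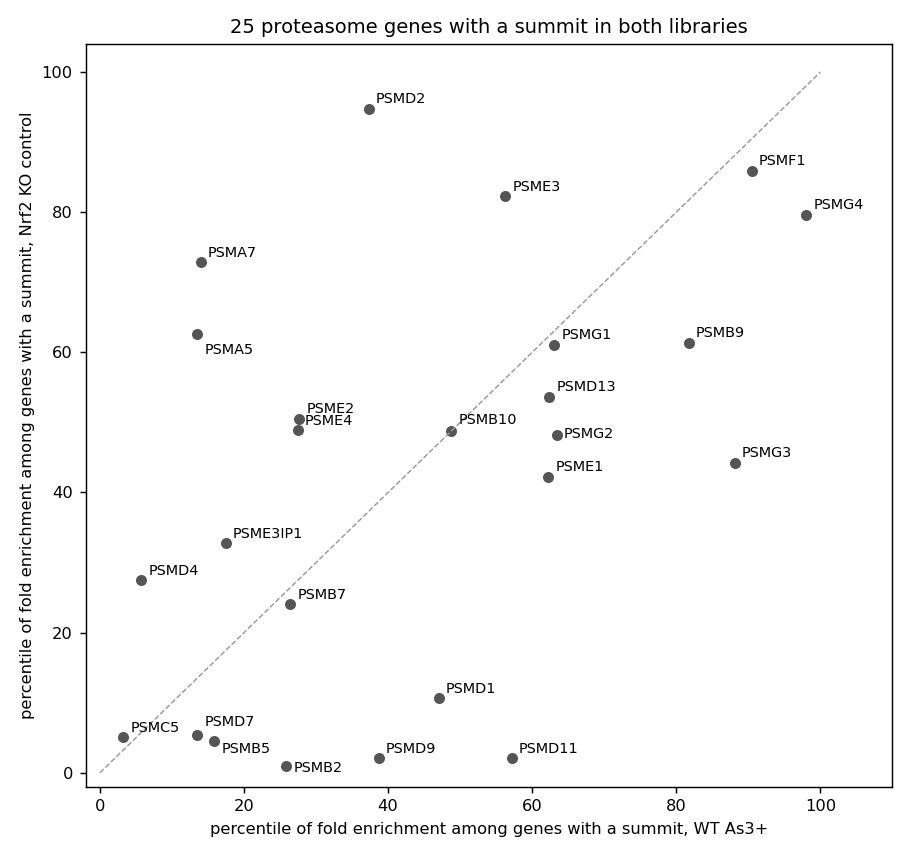
Each point is 1 of the 25 proteasome genes with a promoter summit in both libraries, placed by the percentile of its highest fold enrichment among all genes with a summit in WT As3+ (horizontal) and in Nrf2 KO control (vertical), with the dashed line at equal percentiles. PSMF1 and PSMG4 are at the upper right, PSMC5 is at the lower left, and PSMA7, PSMD2 and PSMD11 lie farthest from the line.

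Within these 25 genes, the peak intervals of the 2 libraries overlapped in 24 (96%), against 91.6% of all genes with a summit in both. The nearest summits of the 2 libraries were 162 bp apart at the median, against 120 bp over all genes, and 10 bp apart or less for PSMD2, PSMD13, PSME4, PSMF1, PSMG1 and PSMG3.

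Neighbouring promoters limit the assignment. Another protein-coding TSS lay within 2 kb for 14 of 50 proteasome genes (28%), against 15.6% of all genes. For 9 of the 14 it was on the opposite strand and pointed away. For PSMA1, PSMA2 and PSMD9, not among those 9, it was a gene without a symbol starting 42, 40 and 19 bp away. Of these 14, 11 (78.6%) had a summit in WT As3+, against 68.2% of all genes with such a neighbour, and of the other 36, 18 (50%), against 49.7%. The same shares in Nrf2 KO control were 78.6%, against 81.6% of all genes with such a neighbour, and 75%, against 65.0%. The highest summit was closer to the TSS of the neighbour for 8 genes in WT As3+ and 6 in Nrf2 KO control. PSMA1 and PSMD9 were among the 6. A summit between 2 starts cannot be assigned to either gene. No peak was counted for more than 1 proteasome gene.

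Words were counted in the 200-base window of the highest peak of each gene, and were few. In WT As3+ the KLF word was in 2 of 29 windows (6.90%, PSMD8 and PSMG1), against 8.72% of the windows of all genes with a summit, and the GC box in 3 (10.3%), against 13.6%. The ARE core was in 4 (13.8%, PSMC5, PSMD9, PSME4 and PSMG1), against 8.82%, and the AP-1 word in 3 (10.3%, PSMB7, PSMC5 and PSMD11), against 1.78%. The ETS word was in 2 (6.90%, PSMD9 and PSMF1), against 7.67%. The Nrf2 KO control windows held the KLF word in 4 of 38 (10.5%, PSMB6, PSMB7, PSMG1 and PSMG4), against 7.94%. The GC box was in 3 (7.89%), against 11.6%, and the AP-1 word in 1 (2.63%, PSMB7), against 1.40%. The ETS word was in 4 (10.5%, PSMB10, PSMD7, PSMF1 and PSMG4), against 6.43%. The ARE core was in 6 (15.8%, PSMA5, PSMB9, PSMD2, PSMD12, PSME2 and PSMG1), against 8.57%. PSMG1 was the only gene whose highest peak held the ARE core in both libraries, while with the lower peaks counted PSMD2, PSME2 and PSME4 held it in both as well. A match describes letters and is no binding site.

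In the RefSeq promoters themselves, which do not depend on the peaks, 44 of 50 proteasome genes were matched. The ETS word was in 17 of 44 (38.6%), against 14.8% of 15344 protein-coding promoters, and the ARE core in 12 (27.3%), against 14.3%. Promoters with the ARE core were those of PSMB3, PSMB9, PSMC4, PSMD1, PSMD3, PSMD5, PSMD9, PSMD12, PSME1, PSME2, PSME4 and PSMG1. Of these, PSMB3 and PSMD3 had no promoter summit in any library. The GC box was in 11 (25%), against 24.1%, and the KLF word in 3 (6.82%, PSMF1, PSMG1 and PSMG4), against 10.01%. The AP-1 word was in 1 (2.27%, PSMD9), against 3.545%. PSMA7, PSMB1, PSMB6, PSMB7, PSMD4 and PSMG3 had no entry.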

How the data were processed

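KLF4 ChIP-seq peak lists of 4 BEAS-2B libraries were used. Conditions were taken from the sample labels. Per the labels, the authors aligned reads to GRCh38/hg38 with BWA, and the peak caller is not given in the sources used here. The authors deposited for each peak a fold enrichment (a ratio of library to local background at the summit), a −log10 p-value, a −log10 q-value and a score. The input library was from WT control cells. H3K4me1, H3K27Ac and input samples were not analysed here, and read totals are unknown.

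Fragments over a summit (n) and background (λ) were computed from fold = (n + 1)/(λ + 1) and p as an upper Poisson tail, which fitted every peak within 0.000405 in −log10 p. Genes came from GENCODE 44 (Ensembl 110), with Ensembl canonical TSS, and promoter sequences from RefSeq (GRCh38 patch 14). A summit within 2 kb counted for every gene in reach. Motif windows were 200 bp. The fragment, TSS and motif steps were tested on simulated data, where all 2000 TSS assignments were recovered. Shares carry exact Clopper-Pearson 95% intervals. A count of 0 allows up to 3. No test was run, since each condition has 1 library.

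Genes named were the 6 highest folds in WT As3+ and in Nrf2 KO control, genes listed in only 1 of these or in none, any gene in the other libraries, the catalytic subunits, and genes with an ARE core in a summit window. Other genes were named to account for their role. A single gene was left out of the pathway list and is not reported here. Members, roles and lists were chosen with earlier results of these data known. Python 3.11.15, numpy 2.4.6, pandas 2.3.3, scipy 1.17.1 and matplotlib 3.10.9 were used.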

Additional observations from a re-analysis of the deposited data

Results flagged for a closer look

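The change with As3+ went in opposite directions in the 2 genotypes. The number of proteasome genes with a promoter KLF4 summit rose by 28 in WT cells, from 1 to 29, and fell by 38 in Nrf2 KO cells, from 38 to 0. Each number compares 2 single libraries with lists of very different length, the difference was not tested, and all protein-coding genes moved the same way (0.794% to 52.5% in WT, and 67.5% to 0.195% in Nrf2 KO).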

How the results depend on the processing

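Of 80 counts recomputed under alternatives, 64 stayed within 1.5 times the reported count and 16 did not. Some of the 64 could not move. The Nrf2 KO As3+ count of 0 cannot rise under a stricter rule, and a list cut to its own length or more stays as it is. At a −log10 q of at least 5, WT As3+ had 15 genes and Nrf2 KO control 18, with 9 in both and 25 in no library. These were 30%, 36%, 18% and 50%, against 28.64%, 38.48%, 20.08% and 52.94% of all protein-coding genes. With lists cut to the length of the WT As3+ list, Nrf2 KO control had 23 (46%), against 50.84% of all protein-coding genes. The classes both, WT As3+ alone, Nrf2 KO control alone and no library held 16, 13, 7 and 14. These were 32%, 26%, 14% and 28%, against 40.25%, 12.29%, 10.58% and 36.86% of all protein-coding genes. With lists cut to the length of the WT control list, WT As3+ had 2 and Nrf2 KO control 0, and the same classes held 0, 2, 0 and 47. Over all protein-coding genes WT As3+ had 1.887% and Nrf2 KO control 2.825%, and the classes held 0.4992%, 1.388%, 2.326% and 95.37%. These cuts hold fewer peaks by construction. Counted over the gene with 2 kb on either side, WT control had 3 genes (6%), PSMC5, PSMC6 and PSMG4, against 2.276% of all protein-coding genes. Windows of 500 bp, 1 kb and 5 kb, any annotated transcript start, peak intervals in place of summits and leaving out PSMC3IP and PSME3IP1 moved none of the 8 counts by over 1.5 times. The ARE core was in 2 and 8 of 29 WT As3+ windows at 100 and 400 bp (6.897% and 27.59%), against 4.579% and 16.91% of the windows of all genes with a summit. The KLF word was in 1 and 4 (3.448% and 13.79%), against 4.551% and 15.55%. Of 44 other values, 25 stayed within their limits, among them every median fold, and 19 did not, which were counts or backgrounds of words and the shares of CpG-rich genes. No paired analysis was possible because each condition has 1 library and the counts come from no test. Read totals were not used, and the weakest peaks of the WT control and Nrf2 KO As3+ lists had 10 fragments, so weaker sites there could not be seen.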
